A study of Caenorhabditis elegans with 8 samples.

Results

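The regions described here carried a peak in both lists of wild-type SKN-1 and in neither list of the gain-of-function form. SKN-1 was mapped with chromatin immunoprecipitation and sequencing in whole Caenorhabditis elegans. The peaks of 4 lists were merged wherever they shared at least 1 bp, and 1491 of the 35430 merged regions (4.21%) met the rule. They made up 12.0% of the 12432 regions found in both wild-type lists. The members were chosen by the peak calls in the 4 lists, which are measured values of this experiment. Their number, their enrichment and their lack of a gain-of-function peak are therefore descriptions, without a test.

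SKN-1 is a transcription factor of the Cap'n'collar family, related to mammalian Nrf2. It binds DNA without a leucine zipper, specifies endoderm fate in the embryo, and in later life acts in the intestine and in the ASI sensory neurons. It is best known for turning on phase II detoxification, glutathione and antioxidant genes under oxidative stress, downstream of the p38 MAP kinase cascade NSY-1, SEK-1 and PMK-1 and held in check by insulin-like signalling. Gain-of-function forms raise SKN-1 target expression without added stress.

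Both groups carried SKN-1 fused to green fluorescent protein and were precipitated with a Chromotek reagent against that tag. WT denotes the wild-type fusion. GF denotes the fusion carrying SKN-1gf(lax188). Animals were grown at 20°C on plates seeded with OP50 bacteria, and their age is not given in the labels. The promoter and the copy number of the fusion are not stated in the labels. Nor is it stated that the replicates were grown separately, and differences between lists of 1 genotype may be technical. Each genotype had 2 precipitated samples with 1 peak list each. The lists are called WT 1 and WT 2 for the wild type, and GF 1 with GF 2 for the other form. No-antibody samples, 4 in number, were not analysed here. Whole animals were used, and the lists hold no measure of expression, so the cell types behind a peak cannot be told apart.

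The lists were of unequal length, with 15943 peaks in WT 1 and 29541 in WT 2. GF 1 held 25007 and GF 2 held 905. Depth is unknown, since the lists hold no read counts. GF 2 stands apart by its length and adds little to the rule, since only 26 regions in both WT lists had a peak in GF 2 and none in GF 1. Merging without GF 2 gave 1518 regions by the same rule. Without GF 1 the number was 12131, without WT 1 it was 9800, and without WT 2 it was 3008. The peaks listed for WT 2 are named as WT replicate 1 inside the file although they differ from those of WT 1, so the origin of that list rests on its sample record. An absent peak is an absent call and was not read as absent binding.

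The strongest of these regions lay on the left end of chromosome X at 143335 to 143569 (coordinates are those of the lists, build ce10), between Y73B3A.8 and Y73B3A.11. Fold enrichment, the authors' ratio of signal over the caller's background at a peak, was 3.07 in WT 1 and 4.75 in WT 2. By fold it was peak 16 of WT 1 and peak 2 of WT 2. The nearest GF 1 peak lay 822 bp away. A region of 183 bp on chromosome IV (13847389 to 13847571) between rga-5 and vamp-8 had folds of 2.25 and 2.87, and no GF 1 peak lay within 11820 bp of it. The third by the smaller of its WT folds was the region at 15320827 to 15321367 on chromosome V, at an end of the nuclear hormone receptor gene nhr-291. Its folds were 2.25 and 3.67, and the nearest GF 1 peak lay 584 bp away. The fourth lay between fbxa-214 and Y38A10A.7 on chromosome V (6072271 to 6072813), with folds of 2.18 and 3.40. These 4 were the only regions of the set with folds of at least 2 in both WT lists as deposited, before rounding. Of all 337 both-WT regions that strong, they made up 1.19% (Wilson 95% interval 0.463 to 3.01, covering counting error over regions only).

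Regions were then ranked by the smaller of their WT folds, and the first 20 had a smaller fold of at least 1.76. Of these 20, 5 lay at an end of a protein-coding gene, 7 inside a gene away from its ends, and 8 outside both. An end here means a WT summit from 1000 bp outside to 200 bp inside either end of a gene. Gene neighbours were read from a RefSeq table of another build, WBcel235, and exons and introns were not assigned. Besides nhr-291, the gene ends were those of T08G3.13 (chromosome V, 16450049 to 16450209, folds 2.04 and, just under 2 before rounding, 2.0), C54E10.3 with C54E10.7, F55B11.5, and the Hsp70 family genes F44E5.4 and F44E5.5.

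Inside genes, a region at 3897150 to 3897394 on chromosome III lay within tir-1, which encodes the SARM1-type adaptor upstream of the p38 cascade. Folds there were 1.85 and 2.68, and the -log10 q values of 215 in WT 1 and 857 in WT 2 were among the highest of the set. The organic anion transporter gene oat-1 held a region on chromosome IV (8468718 to 8469280) with folds of 1.91 and 3.15. No GF 1 peak lay within 6232 bp of the oat-1 region. The condensin subunit gene mix-1 held a region on chromosome II (10839180 to 10839417) with folds of 1.77 and 1.80. A pair of neighbouring regions lay inside ZC247.1 on chromosome I, with folds of 1.90 and 2.13 at 10272918 to 10273146 and of 1.93 and 2.10 at 10276032 to 10276234. Both of these therefore belong to 1 gene. The remaining gene-body regions of the first 20 lay in amn-1 and the globin gene glb-33 (1.87 and 1.88) and in W05F2.4 (1.86 and 1.78).

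The remaining 5 of the 8 regions outside genes lay between Y7A5A.7 and Y7A5A.8 on chromosome X, Y59H11AM.1 and catp-7 on chromosome IV, tag-353 and blmp-1 and F37D6.4 and tag-68 on chromosome I, and F57G12.1 and cab-1 on chromosome X. The Y7A5A region (15808110 to 15808268) combined a fold of only 2.2 in WT 1 and 1.98 in WT 2 with -log10 q values of 812 and 681, the highest in WT 1 within the set. Members with a -log10 q above 100 numbered 5 in WT 1 and 13 in WT 2, and each of the 5 was among the 13. The first 20 had a median width of 236 bp, although the nhr-291, fbxa-214, oat-1 and C54E10.3 regions were 541 to 566 bp wide.

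A few regions were far stronger in WT 2 than in WT 1. In 9 of the 1491, the WT 2 fold was more than 1.5 times the WT 1 fold, and in none was the reverse true. Among all both-WT regions 62 had such a ratio, so the 9 made up 14.5% of them, against 12.0% of all both-WT regions. All 9 also had a WT 2 fold of at least 2.5. By itself, a high WT 2 fold did not go with a larger share. The set made up 14 of 953 both-WT regions (1.47%) with a WT 2 fold of at least 2. At a WT 2 fold of at least 2.5 it made up 11 of 149 (7.38%). With the ratio also required, 22 of these 149 were left and the 9 made up 40.9% of them. These cutoffs were chosen after the values were seen, and no test was made. Besides the regions at X 143335, nhr-291, fbxa-214, F44E5.4 and oat-1, they were a region between Y40A1A.3 and Y102A11A.9 on chromosome X (2002804 to 2003255, folds 1.70 and 3.07), one inside the collagen gene col-52 on chromosome I (4573310 to 4573807, 1.75 and 3.04), one at Y41E3.13 on chromosome IV (15059136 to 15059527, 1.47 and 2.62) and one at ZC262.7 on chromosome III (8344351 to 8344907, 1.43 and 2.51). Their ranks in WT 1 ran from peak 16 at X 143335 to peak 9469 at ZC262.7, and in WT 2 from peak 2 to peak 152.

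**Figure D1:**
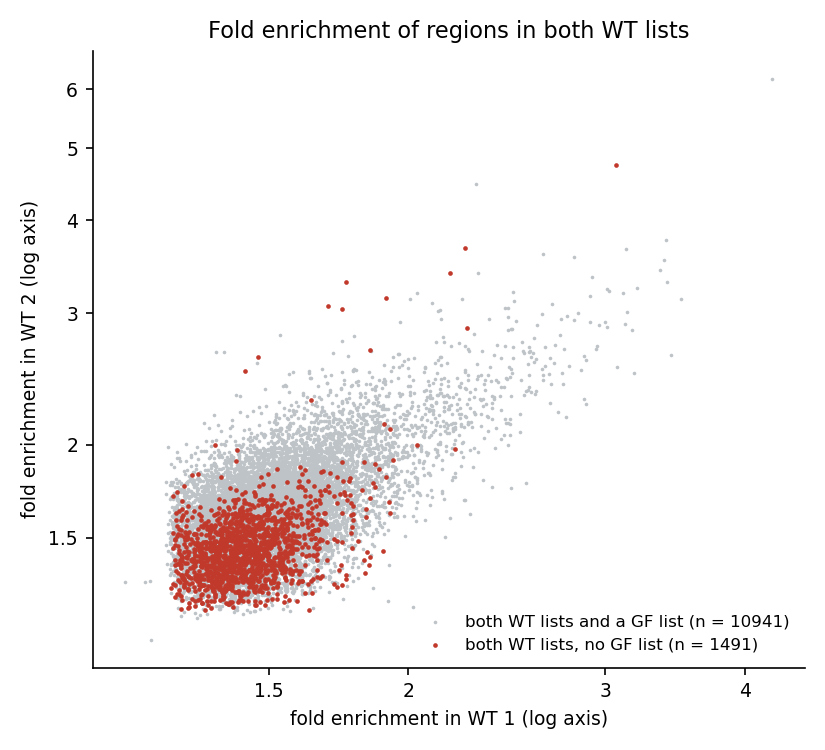
Fold enrichment in WT 1 (horizontal, log axis) and WT 2 (vertical, log axis) of each region found in both WT lists. Red points are the 1491 regions without a GF peak and grey points the 10941 regions with one. Most red points lie in the lower left corner, and the 9 whose WT 2 fold exceeds 1.5 times the WT 1 fold stand above the cloud.

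Apart from these, enrichment was low. The median fold was 1.42 in WT 1 (quartiles 1.35 and 1.51) and 1.44 in WT 2 (1.36 and 1.54). Regions in both WT lists that also had a GF peak, 10941 in number, had medians of 1.49 and 1.60. Expressed as a rank within its own list, the median region without a GF peak stood at percentile 38.6 of WT 1 and 42.8 of WT 2, and the median region with one at percentile 57.5 and 74.0. Median -log10 q was 3.87 in WT 1 and 5.37 in WT 2 without a GF peak, against 5.60 and 9.83 with one. A -log10 q under 2, close to the threshold of 1.30 in these lists, was found in WT 1 for 147 regions (9.86%). In both lists at once, 323 regions (21.7%) reached a -log10 q of 5. Most of the set therefore sat in the weaker part of each WT list.

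Folds of the WT lists were related across the 1491 regions with a Pearson r of 0.511 and a Spearman rho of 0.295, and across the 10941 with 0.664 and 0.480. These are descriptions over regions of the same 2 libraries, with no p. WT summits lay a median of 32.0 bp apart without a GF peak and 36.0 bp with one, and within 100 bp of each other in 78.5% (76.4 to 80.5) and 73.8% (72.9 to 74.6). With the both-WT regions sorted into 4 classes of equal size by the smaller fold, the share within 100 bp was lowest in the weakest class, at 70.8% without and 67.4% with a GF peak. It was highest in the strongest class, at 98.2% and 80.4%. Summits cannot lie farther apart than their region is wide. The median width in that class was 238 bp without and 600 bp with a GF peak, so these shares are not compared at equal width.

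The share of both-WT regions without a GF peak was lower in each higher class of fold, apart from a tie between the second lowest and the next. Sorted into 10 classes of equal size by the smaller WT fold, 267 of 1244 regions (21.5%, 19.3 to 23.8) lacked a GF peak in the lowest class, with folds from 1.09 to 1.30. In the fifth class 165 of 1243 (13.3%) lacked one, and in the highest 27 of 1244 (2.17%, 1.50 to 3.14). Width gave a steeper gradient, over 4 classes of equal size. In the narrowest class, up to 320.0 bp, 868 of 3108 (27.9%) lacked a GF peak, against 23 of 3108 (0.740%) in the widest, from 736 bp. A merged region grows with each further peak it holds, so width and the presence of a GF peak are not independent.

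**Figure D2:**
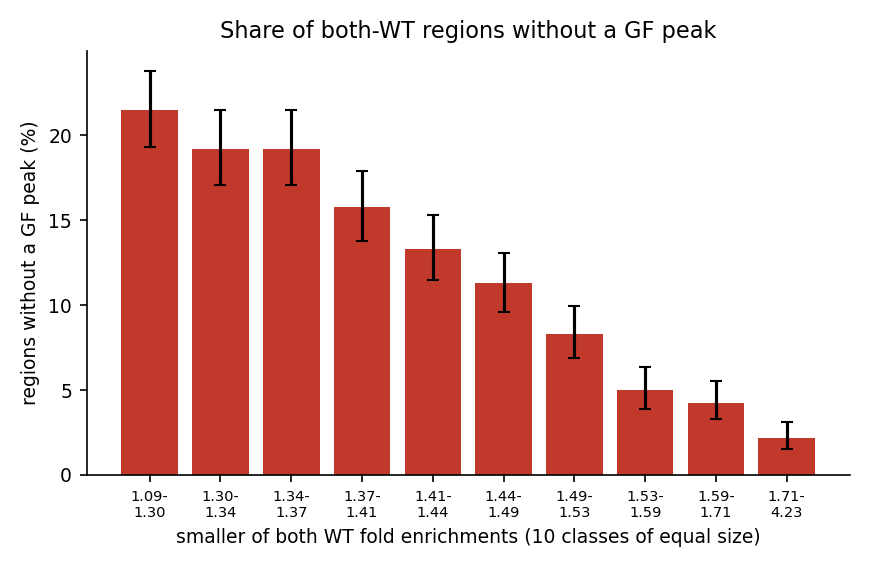
Share of both-WT regions that had no GF peak (vertical, percent, with Wilson 95% intervals) in 10 classes of equal size by the smaller WT fold (horizontal). The share was 21.5% in the lowest class and 2.17% in the highest.

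Regions of the set had a median width of 291 bp (quartiles 228 and 388), against 501 bp for both-WT regions with a GF peak. Each held 1 peak of WT 1 and 1 or 2 of WT 2. The widest, 1659 bp on chromosome II (13086215 to 13087873), lay inside gcn-2, the gene of an eIF2 alpha kinase, with folds of 1.40 and 1.58. The next lay inside R107.5 on chromosome III (1513 bp, folds 1.34 and 2.0) and at an end of arrd-2 on chromosome II (1397 bp, 1.36 and 1.38).

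Most regions had a GF 1 peak not far away. The gap to the nearest was 1205 bp at the median (quartiles 541 and 2532), 348 regions (23.3%, 21.3 to 25.6) had one within 500 bp, and 1021 (68.5%) within 2000 bp. Within 100 bp there were 9. GF 1 held 25007 peaks over the genome, and gaps from positions outside the set were not measured. Closeness to a GF 1 peak is therefore not claimed as a trait of the set. The closest to the overlap limit lay inside pes-4 on chromosome III (1220896 to 1221502, folds 1.33 and 1.44), 21 bp from a GF 1 peak. The region at gsa-1 on chromosome I (1074564 to 1074850, 1.42 and 1.34), which encodes the stimulatory G protein alpha subunit, lay 29 bp away. That at lir-1 and lin-26 on chromosome II (1.48 and 1.57) lay 56 bp away. Just outside the limit, the region inside the filamin gene fln-2 on chromosome X (9413869 to 9414461) had WT folds of 1.57 and 1.41 and shared 2 bp with a GF 1 peak of fold 1.45. One at rpl-37.1 on chromosome II shared 8 bp with a GF 1 peak of fold 1.35, and its WT folds were 1.64 and 1.45. In 36 both-WT regions the WT and GF peaks shared at most 100 bp.

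**Figure D3:**
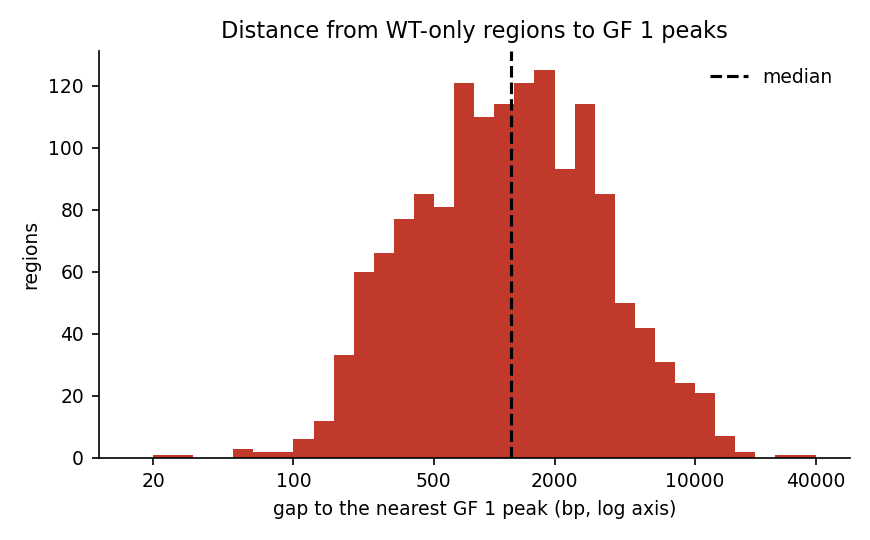
Number of both-WT regions without a GF peak (vertical) by their gap to the nearest GF 1 peak (horizontal, bp on a log axis). The dashed line is the median of 1205 bp, and 9 of the 1491 regions lie within 100 bp.

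At the other extreme, the 2 regions farthest from a GF 1 peak were neighbours on chromosome V. One lay at nhr-136, a nuclear hormone receptor gene, and inside lhpp-1 (12109422 to 12109912, folds 1.46 and 1.41), 35656 bp from a GF 1 peak. The other lay inside spin-1 (12115927 to 12116345, 1.46 and 1.55), 29223 bp away. Both fell in a stretch of 72903 bp without a GF 1 peak, where WT 1 had 3 peaks and WT 2 had 7. The next farthest was on chromosome IV (6941590 to 6941780, 1.49 and 1.36), 16718 bp away. One stretch between GF 1 peaks held 4 regions of the set, on chromosome II from 5220112 to 5248332, and all 4 peaks of WT 1 there belonged to them. The intestinal acid phosphatase gene pho-1 and EGAP2.2 lay at these regions, whose folds ran from 1.24 to 1.61. GF 2 had no peak in either stretch.

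Regions of the set were mostly solitary. Joined where they lay at most 10 kb apart, the 1491 formed 1219 runs, of which 1003 were single regions and 7 held 4, the largest number. The run with the highest mean fold of these 7 lay on chromosome V (809759 to 819014) at R13D11.1, R13D11.4 and the chemoreceptor gene srx-32, with folds between 1.23 and 1.90. Others of the 5 lay at pdi-3 (protein disulfide isomerase) and ubql-1 (ubiquilin) on chromosome I, at spin-2, C39E9.7, C39E9.8 and prcc-1 on chromosome IV, and at dbd-2 and the Eph receptor gene vab-1 on chromosome II. The pho-1 run described above was also among the 5 chosen by number and mean fold. Between 0 and 3 both-WT regions with a GF peak lay inside each of these 5 runs, and the pho-1 run was the one with 0.

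By chromosome, 21.6% of the regions (322, interval 19.6 to 23.8) lay on X, against 17.3% (16.6 to 18.0) of both-WT regions with a GF peak. Chromosomes I to V held 14.8%, 16.7%, 12.8%, 14.4% and 19.7% of the set. The share on X moved with the list as well. X held 21.8% of all WT 1 peaks and 12.0% of those in WT 2. For GF 1 it was 16.5%, and 7.07% for GF 2. Regions in WT 1 and GF 1 without WT 2 were on X in 53.6% of 948 cases, and regions in WT 2 and GF 1 without WT 1 in 7.62% of 8076. With all both-WT regions sorted into 4 classes of equal size by the smaller fold, the share on X was 23.2% without and 19.2% with a GF peak in the lowest. It was 23.5% and 19.0% in the next, 17.4% and 19.1% in the one after, where the order turned, and 14.7% and 12.6% in the highest. Among 4 such classes of width, the share without a GF peak was the higher only in the second narrowest, with 24.6% against 20.5%. In the narrowest, which held 868 of the 1491, it was 21.7% against 23.6%. The part of the lists in the share on X was not tested.

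Along the chromosomes, 66.6% of the regions (64.2 to 68.9) lay in the outer parts, meaning the 33.3% of a chromosome's length at either end, against 78.7% (77.9 to 79.5) of both-WT regions with a GF peak. The outer parts of worm autosomes are known as gene-poor and repeat-rich arms, and the middle holds more of the conserved, broadly expressed genes. The share was lower without a GF peak on each of the 6 chromosomes. It was 63.5% against 83.9% on chromosome II, the widest gap, and 67.4% against 72.9% on X, the narrowest. The intervals overlapped on chromosomes IV and X. It was also lower in each of the 4 classes of fold, from 62.7% against 72.9% in the lowest to 75.2% against 84.3% in the highest, and in each of the 4 classes of width. Regions of the other pairs of long lists that lacked the remaining long list lay in the outer parts in 71.3% (WT 2 and GF 1) and 70.0% (WT 1 and GF 1), between these values. No test over regions was made, and position is not claimed to mark the set apart.

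**Figure D4:**
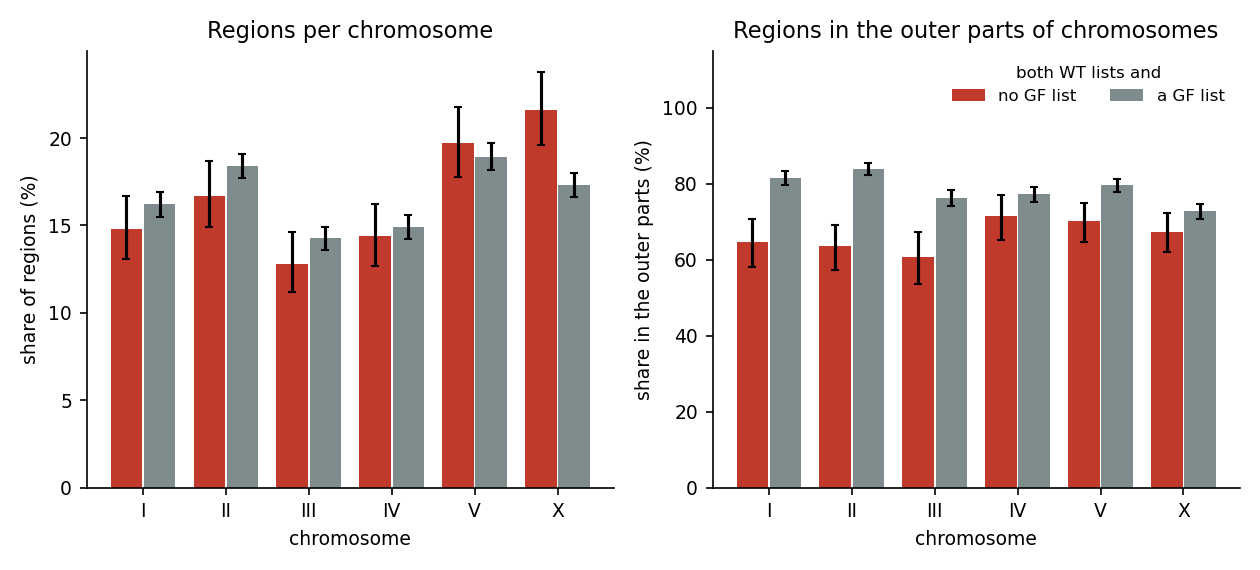
Left, share of regions per chromosome (percent); right, share of each chromosome's regions in its outer parts (percent). Red bars are both-WT regions without a GF peak, grey bars those with one, with Wilson 95% intervals. The red bars are lower than the grey ones on all 6 chromosomes in the right panel.

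At least 1 WT summit lay at an end of a protein-coding gene in 571 regions (38.3%, 35.9 to 40.8), against 32.4% (31.6 to 33.3) of both-WT regions with a GF peak. Another 671 (45.0%) lay inside a gene away from its ends, against 52.2%, and 249 (16.7%) outside both, against 15.4%. The share at gene ends was higher without a GF peak in each of the 4 classes of fold, from 37.6% against 30.3% in the lowest to 44.0% against 34.3% in the highest. It depends on the window, with 21.9% for 500 bp outside and 100 bp inside and 62.0% for 2000 bp and 500 bp. The 571 regions touched 732 of 19971 protein-coding genes (3.67%). Of these, 122 (16.7%) also had a both-WT region with a GF peak at an end, against 20.4% of all protein-coding genes. For the other 610 genes (3.05% of all), every both-WT region at an end was without a GF peak.

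Gene groups were read against that 3.67%, by counts and without a test. Detoxification and antioxidant genes are the best known targets of SKN-1. Both-WT regions with a GF peak lay at an end of 5 of 25 phase II and glutathione genes (20.0%). They lay at 3 of 26 antioxidant enzyme genes (11.5%), and at 20.4% of all protein-coding genes. None of these 25 and 26 genes had a region of the set at an end, and groups this small cannot tell 0 from 3.67%. Of the wider families, 1 of 49 glutathione S-transferase genes (gst-41, folds 1.44 and 1.61), 1 of 67 UDP-glucuronosyltransferase genes (ugt-41, 1.41 and 1.48) and 2 of 74 cytochrome P450 genes did, cyp-23A1 (1.66 and 1.54) and cyp-31A2 (1.36 and 1.33). The gst-41 region also lay at an end of the chemoreceptor gene srx-60. A summit of the ugt-41 region fell inside the chemoreceptor gene str-204, so neither region can be assigned to 1 gene alone. The glutathione reductase gene gsr-1 held a summit inside the gene (chromosome III, 3651693 to 3651929, 1.35 and 1.42) that fell in the end window of another gene.

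SKN-1's own gene held a region of the set. It spanned 5654023 to 5654643 on chromosome IV, inside skn-1 away from its ends, with folds of 1.41 and 1.51. The C-type lectin gene clec-178 held a summit of the same region, so it cannot be assigned to skn-1 alone. Beside it, regions at 5651339 to 5651673 (1.43, 1.40 and 1.62) and 5651936 to 5653423 (1.48, 1.67 and 1.76) were called in WT 1, WT 2 and GF 1. On its other side, a region at 5655134 to 5655487 was called in WT 2 and GF 1 (1.40 and 1.64), so GF 1 peaks flanked it on both sides. Of 32 genes for SKN-1 regulation and signalling, 0 had a region at an end and 4 (12.5%) held one inside, against 4.77% of all protein-coding genes. The other 3 were daf-2, the insulin receptor gene (chromosome III, 2999921 to 3000879, 1.29 and 1.42), daf-16, the FOXO factor below it (chromosome I, 10761939 to 10762490, 1.45 and 1.36), and nsy-1, the MAP kinase kinase kinase gene of the p38 cascade (chromosome II, 5026661 to 5027059, 1.38 and 1.33). All of these folds were at or below 1.51, against medians of 1.42 and 1.44 over the set. Counts inside genes favour long genes, in this group and in those below.

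Heat-inducible chaperone genes had 4 of 21 with a region at an end (19.0%), but these rest on 2 regions. One lay between F44E5.4 and F44E5.5 on chromosome II (11759333 to 11759613), a pair of stress-induced Hsp70 genes, with folds of 1.76 and 3.31. F44E5.4 also had a both-WT region with a GF peak. The other lay at the small heat shock protein genes hsp-16.2 and hsp-16.41 on chromosome V (1805141 to 1805349), with folds of 1.40 and 1.42. A WT summit of that region fell inside hsp-16.41. The genes of each pair are near-identical or closely related copies, so reads from them can be split between copies.

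Muscle structure genes had 6 of 45 at an end (13.3%) and 8 (17.8%) with a summit inside, against 4.77% of all protein-coding genes for the latter. A both-WT region with a GF peak lay at an end of 19 of the 45 (42.2%), against 20.4% of all genes. At ends, the named genes were tni-4, a troponin I gene (1.50 and 1.64), pat-10, which encodes troponin C (1.46 and 1.59), unc-60, the cofilin gene (1.26 and 1.76), and unc-89, the obscurin gene (1.47 and 1.43). The strongest summit inside a muscle gene was in the titin gene ttn-1 (chromosome V, 6175322 to 6175588, 1.85 and 1.70). Tropomyosin (lev-11), paramyosin (unc-15), beta integrin (pat-3) and the L-type calcium channel gene egl-19 also held regions, with folds from 1.26 to 1.51.

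Genes of neuronal signalling appeared in several groups. Potassium channel genes had 8 of 66 at an end (12.1%), led by twk-42 (1.83 and 1.40), kvs-5 (1.50 and 1.59), twk-17 (1.63 and 1.46) and twk-22 (1.50 and 1.51), and 4 of the 8 also had a region with a GF peak. Genes listed as neurotransmitter-gated channels had 5 of 97 (5.15%), among them lgc-22 (1.67 and 1.73), lgc-42 (1.61 and 1.75) and acr-15 (1.42 and 1.47). That list also held GABA-B receptor genes, which do not encode channels, and gbb-2 (1.50 and 1.63) was 1 of the 5. Genes named as neuropeptide or neuropeptide-like, not all of which are neuronal, had 6 of 111 (5.41%). Among them were nlp-10 (1.65 and 1.50), nlp-61 (1.55 and 1.53) and, at 1 shared region, nlp-31 and nlp-34 (1.40 and 1.68). That shared region also lay at an end of the chemoreceptor gene str-83. Of 29 pan-neuronal and ASI genes, 2 had one, ric-19 (1.46 and 1.29) and the synaptogyrin gene sng-1 (1.44 and 1.24). Of 39 insulin-like peptide genes, only ins-24 did (1.24 and 1.40), and it also had a region with a GF peak.

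Transcription factor genes made up 2 groups. Nuclear hormone receptor genes had 18 of 269 (6.69%), which rest on 16 regions. After nhr-291 the leading members were nhr-70 (1.65 and 1.68), nhr-254 (1.60 and 1.65) and nhr-7 (1.52 and 1.48). Homeobox genes had 7 of 87 (8.05%) at an end and 11 (12.6%) inside, against 3.67% and 4.77% of all genes. Those at ends included ceh-32 (1.47 and 1.57), a Six-type gene, ceh-40 (1.42 and 1.44), dve-1 (1.47 and 1.37), which acts in the mitochondrial unfolded protein response, and the Msx-type gene vab-15 (1.38 and 1.39). Inside, zag-1 (1.58 and 1.56) and pha-2 (1.53 and 1.47) had the highest folds.

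The series title names a Dicer-related helicase, and genes of RNA interference formed 1 group. Of 44 RNA interference genes, 4 (9.09%) had a region at an end. None of these 4 also had one with a GF peak, and over all 732 genes with a region of the set 16.7% did. They were alg-1, the microRNA Argonaute gene (chromosome X, 13949264 to 13949518, 1.74 and 1.38), rde-4, whose product binds double-stranded RNA with Dicer (chromosome III, 10217391 to 10217613, 1.35 and 1.61), the nuclear Argonaute gene nrde-3 (chromosome X, 371829 to 372033, 1.50 and 1.42) and the helicase gene mut-14 (chromosome V, 5657529 to 5657815, 1.50 and 1.26).

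Other large gene families lay on both sides of the 3.67%. F-box genes had 17 of 325 (5.23%), 17 separate regions led by fbxb-47 (1.74 and 1.72), fbxb-21 (1.54 and 1.59), fbxb-6 (1.56 and 1.54) and fbxc-54 (1.52 and 1.48). Cuticle collagen genes had 10 of 175 (5.71%), led by col-144 (1.70 and 1.73), col-92 (1.47 and 1.59), col-102 (1.55 and 1.48) and col-138 (1.40 and 1.61). C-type lectin genes had 7 of 239 (2.93%), led by clec-92 (1.75 and 1.71), clec-8 (1.51 and 1.76), clec-108 (1.54 and 1.58) and clec-260 (1.59 and 1.45). A both-WT region with a GF peak lay at an end of 85 of the 239 (35.6%), against 20.4% of all protein-coding genes. Chemoreceptor genes had 21 of 1269 (1.65%), led by sre-46 (1.92 and 1.67), srh-24 (1.78 and 1.61), srx-32 (1.63 and 1.68), and srw-83 at a region shared with srw-82 (1.85 and 1.41).

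Among broadly expressed genes, the groups lay on both sides of the 3.67%. Cytosolic ribosomal protein genes had 3 of 84 (3.57%), rps-7 (1.25 and 1.24), rpl-23A.1 (1.57 and 1.43) and rplp-2.2 (1.51 and 1.68). The rplp-2.2 region also lay at an end of the chemoreceptor gene srsx-25. A both-WT region with a GF peak lay at an end of 59 of the 84 (70.2%), against 20.4% of all protein-coding genes. Histone genes had 4 of 82 (4.88%) at 2 regions, his-3 with his-4 (1.59 and 1.60) and his-38 with his-40 (1.34 and 1.53). Histone copies are near-identical, so their reads may be split. Of 36 lipid metabolism genes, 2 (5.56%) had one, the fatty acid synthase gene fasn-1 (1.25 and 1.54) and the lipase gene atgl-1 (1.34 and 1.44). Of 72 MATH and BATH domain genes, 2 had one, bath-45 (1.47 and 1.57) and math-33 (1.32 and 1.33). None of 33 proteasome subunit genes, 21 intestine markers and 36 germline markers had a region at an end. These groups are too small to tell 0 from 3.67%. Of the 36 germline markers, 4 (11.1%) held a summit inside, against 4.77% of all protein-coding genes. These 4 were gld-2, nos-3, mex-3 and spe-9, and the nos-3, mex-3 and spe-9 regions also lay at an end of another gene. Also above 4.77% inside were muscle, homeobox, SKN-1 regulation, neurotransmitter-gated and potassium channel, heat-inducible chaperone, pan-neuronal, RNA interference, nuclear hormone receptor and lipid genes. All other groups were below it, such as chemoreceptor (2.44%), cuticle collagen (1.71%), F-box (1.54%) and ribosomal protein genes (1.19%). Glutathione S-transferase, histone, proteasome, antioxidant enzyme and intestine marker genes had 0.

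**Figure D5:**
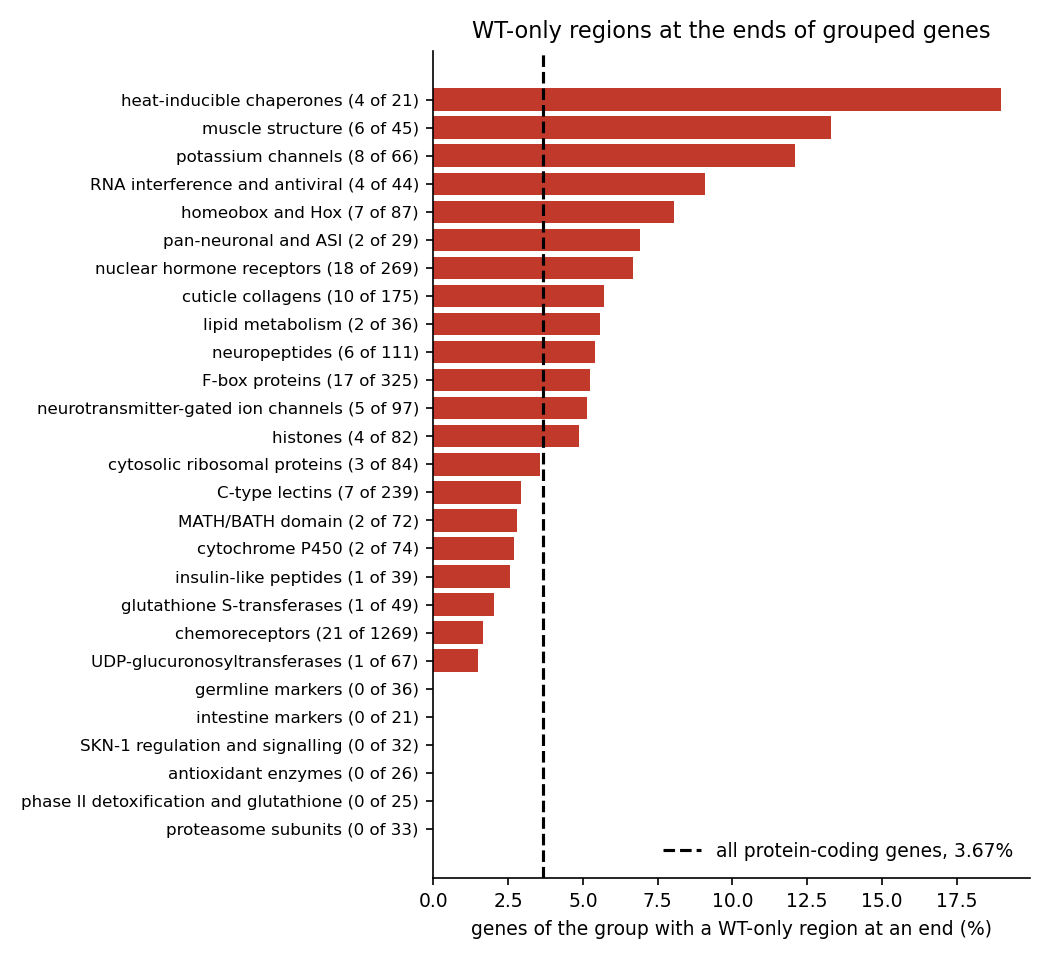
Share of each group's genes (horizontal, percent) with a both-WT region without a GF peak at a gene end, with the counts beside each name. The dashed line is the 3.67% of all protein-coding genes, and 13 of 27 groups reach or pass it.

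The number of regions in both WT lists without GF 1 was also set beside the other pairs of long lists. As deposited, 1517 regions were in WT 1 and WT 2 without GF 1, 8076 in WT 2 and GF 1 without WT 1, and 948 in WT 1 and GF 1 without WT 2. With these 3 lists each cut to their 15943 peaks of highest -log10 p, the numbers were 1623, 2735 and 1877. At equal length, a WT list and GF 1 thus shared more regions that the other WT list lacked than the WT lists shared without GF 1. At that length 1597 regions met the rule of the set, and 655 of the 1491 (43.9%) overlapped one of them. No test between genotypes was made, since a two-sided exact permutation test of 2 lists against 2 cannot go below 0.333.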

How the data were processed

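Peaks were called by the authors in each precipitated sample, not on pooled samples. Per the submitters' processing notes, which give no settings, the tools were MACS2 2.2.7.1, BWA 0.7.17, SAMtools 1.10 and Trim Galore 0.6.4, on build ce10. Which control MACS2 used is not stated in the labels. For each peak the deposited lists hold the fold enrichment, which is the ratio to background, then -log10 values of p and q, and a score in whole numbers of about 10 times the -log10 q. The deposited lists begin at a -log10 q of about 1.30, which is a q of 0.05.

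Samples were grouped by their titles. Regions were merged, counted and matched to genes with Python 3.11.15, NumPy 2.4.6, pandas 2.3.3 and statsmodels 0.14.6, tested on simulated lists, and drawn with matplotlib 3.10.9. Where a list had several peaks in a region, the strongest was used. Chromosome length was taken from the last peak end. Gene names came from a RefSeq table of assembly WBcel235 and its coordinates are not printed. Of 308 gene names listed singly, 3 found no match.

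The members and gene lists were chosen with earlier results of these data known. Named were the 20 regions with the largest smaller-of-both WT folds, up to 4 genes per group by mean fold, the 5 runs with most members, the 3 widest, and the 3 nearest to and farthest from GF 1. Other genes were named after their values were seen: those with a summit inside a gene, the regions stronger in WT 2, and the limits of the rule. Alternatives were other overlaps, thresholds, list lengths, windows, shifted summits and lists left out. No enrichment or chance test was made.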

Additional observations from a re-analysis of the deposited data

How the results depend on the processing

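No paired analysis was possible because each result is a count or share over peak lists and comes from no test. The rule gave 1491 regions as reported and 865 at a -log10 q of at least 5 in every list, and 323 of the 1491 (21.7%) overlapped one of the 865. The number stayed within 1.5 times with a reciprocal overlap of 50% (1805), merging across 100 bp (1492) and equal list length (1597). Leaving out 1 list gave from 1518 to 12131 regions. The share in the outer parts of chromosomes was 66.6% and moved to 70.4% with reciprocal overlap, 71.7% at the stricter q and 70.5% at equal length, and ran from 62.4% to 78.0% with 1 list left out. The share within 500 bp of a GF 1 peak was 23.3% and moved to 49.4%, 18.5% and 18.7% under the same 3 settings, where the GF 1 list or its overlap rule itself was changed, and ran from 23.1% to 24.4% with WT 1, WT 2 or GF 2 left out, GF 1 being needed for the measure. The share at gene ends was 38.3% and moved to 35.4% with reciprocal overlap, 21.9% with the narrower and 62.0% with the wider window, and ran from 31.9% to 38.3% with 1 list left out. Summits moved by 100 bp either way gave 38.2% and 38.4%. Using the mean in place of the largest fold left both medians at 1.42 and 1.44. The causes of these shifts were not tested. The counts of the other list pairs at equal length were added after seeing the data.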

Other observations

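Both-WT regions without a GF peak were also set beside genes without a protein product. A WT summit lay within 150 bp of a pseudogene in 51 of the 1491 (3.42%) and of a gene annotated as ncRNA in 131 (8.79%), against 3.70% and 7.84% of both-WT regions with a GF peak. Transfer RNA genes had 5 (0.335%), microRNA genes 3 (0.201%), snoRNA genes 1 (0.0671%) and snRNA genes 0, against 0.146%, 0.356%, 0.347% and 0.201% with a GF peak. Antisense RNA genes had 6 of the 1491 and 3 of the 10941. These are counts of few regions, and no difference was tested.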
